A study of Homo sapiens with 2 samples.

Results

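The 10 genes described here lie around CCNE1, the gene of cyclin E1, on chromosome 19 in band q12 and the start of q13, and were measured in MDAMB468 and CAL51, a pair of breast cancer lines. They are UQCRFS1, POP4, PLEKHF1, C19orf12, CCNE1, URI1, ZNF507, PDCD5, ANKRD27 and CEBPG, 10 of the 30796 genes counted. The 10 genes were chosen by name from this stretch with the ratio of their levels in the 2 lines already known, so those ratios are given as a description. MDAMB468 and CAL51 are established human lines labelled as breast tissue and triple-negative breast cancer, a class without the estrogen receptor, the progesterone receptor or amplified ERBB2. No treatment, time or genetic change is named in the labels for either line. A single Drop-seq library was made per line, a method that catches a cell in an oil droplet together with a bead, marks its RNA with a barcode of that bead and tags every molecule with an identifier (UMI). The protocol covers 32 cell lines, of which the other lines were not analysed here.

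Band 19q12 is a known site of copy number gain in ovarian, endometrial and triple-negative breast cancers, and CCNE1 is the gene usually named for it. Cyclin E1 binds the kinase CDK2 and drives entry into S phase, its transcription is controlled by E2F factors held back by RB1, and the protein is destroyed by an SCF ubiquitin ligase that uses FBXW7. The neighbours of CCNE1 serve unrelated functions and are often gained with it. Only RNA was measured here, so DNA copy number and protein are unknown.

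The libraries held 306 MDAMB468 barcodes with 5501900 UMIs and 1377 CAL51 barcodes with 16358684 UMIs, with 2501 to 134213 UMIs per barcode. In 31 cases the same barcode sequence occurred in both libraries, and the 31 CAL51-labelled barcodes with 135240 UMIs were left out, so that 1346 CAL51 barcodes with 16223444 UMIs entered the comparisons. The 31 MDAMB468 barcodes with the same sequences were kept, and they held 2181232 of the 5501900 MDAMB468 UMIs. A further 64 MDAMB468 and 7 CAL51 barcodes were satellites: their sequence was 1 base away from that of a barcode in their own library which had 5 times their UMIs or more. They were kept in summed levels and left out of values per cell. Levels are UMI counts summed over a line and scaled to a common total (CPM), and 95% intervals cover counting error only, since there is no replicate library. Of the markers of the label, ESR1 had 3 UMIs in MDAMB468 and 0 in CAL51, PGR had 1 in each, and ERBB2 had 39 and 262. Of the 7 epithelial markers KRT7 and KRT5 were at 0 in CAL51. KRT19, CDH1 and EPCAM were higher in MDAMB468 (ratios of 63.3, 76.7 and 3.06), KRT8 was at 764 CPM in MDAMB468 and 919 CPM in CAL51 (0.831), and KRT18 was lower in MDAMB468 at 555 and 1555 CPM (0.357).

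Promoter windows from RefSeq (GRCh38.p14) were found for all 10 genes, 14 windows in all because some genes have several starts. Each covers 250 bases before to 50 bases after a transcript start. The windows of CCNE1, of PLEKHF1 (the highest ratio between the lines) and of C19orf12 (the lowest ratio) are shown 5′ to 3′ on the strand of the gene. Capitals mark GC boxes (GGGCGG) and CCAAT boxes (CCAAT) on either strand, short elements common near transcript starts. The windows lie at chr19:29811741-29812040 on the plus strand for CCNE1, chr19:29665211-29665510 on the plus strand for PLEKHF1 and chr19:29715007-29715306 on the minus strand for C19orf12.
CCNE1: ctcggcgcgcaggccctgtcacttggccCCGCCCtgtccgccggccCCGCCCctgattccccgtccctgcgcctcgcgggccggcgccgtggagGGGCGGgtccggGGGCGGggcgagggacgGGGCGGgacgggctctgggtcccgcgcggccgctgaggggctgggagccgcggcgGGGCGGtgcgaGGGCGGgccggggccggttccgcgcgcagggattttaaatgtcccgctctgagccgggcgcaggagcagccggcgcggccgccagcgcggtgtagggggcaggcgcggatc
PLEKHF1: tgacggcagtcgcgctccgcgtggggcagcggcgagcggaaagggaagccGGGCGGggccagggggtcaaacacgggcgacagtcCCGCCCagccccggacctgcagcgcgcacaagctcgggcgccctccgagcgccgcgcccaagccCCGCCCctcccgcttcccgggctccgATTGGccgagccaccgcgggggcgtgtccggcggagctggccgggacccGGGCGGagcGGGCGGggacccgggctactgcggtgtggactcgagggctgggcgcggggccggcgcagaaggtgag
C19orf12: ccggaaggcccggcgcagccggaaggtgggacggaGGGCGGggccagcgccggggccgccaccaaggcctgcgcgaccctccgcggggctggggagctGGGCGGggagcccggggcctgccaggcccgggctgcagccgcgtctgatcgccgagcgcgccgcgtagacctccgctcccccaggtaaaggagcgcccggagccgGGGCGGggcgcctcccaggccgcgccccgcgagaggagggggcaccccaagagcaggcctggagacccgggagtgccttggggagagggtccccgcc
The CCNE1 window held 7 GC boxes and no CCAAT box and was 81% G and C. The PLEKHF1 window held 5 GC boxes and 1 CCAAT box, and this C19orf12 window held 3 GC boxes. A GC box occurred in 11 of the 14 windows, and 45% of all 35116 RefSeq windows held one. A CCAAT box occurred in 4 of the 14 windows and in 34.6% of all windows. The letters TTTCCCGC, TTTCGCGC, TTTGGCGC and TTTGCCGC, forms of the E2F site, were in no window of the 10 genes and in 3.31% of all windows. Only these exact letters were searched, so other forms of the E2F site would be missed. The letters TATAAA were in no window of the 10 genes and in 11.5% of all windows. The letters CCGGAAG, the core of ETS sites, were in 5 of the 14 windows (1 of POP4, 3 of C19orf12, which overlap, and 1 of URI1) and in 10.3% of all windows. These are matches of letters only, with no measurement of binding, and the lines' own DNA was not read.

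All 10 genes were higher in MDAMB468 RNA, by 1.49-fold to 26.1-fold. All had at least 20 UMIs over both lines, the filter used, and 8 of 10 had a CPM ratio of MDAMB468 over CAL51 of at least 2, against 18.9% of the 15347 genes tested. None had a ratio of 0.5 or less, which 22.4% of the tested genes had. The median log2 ratio was 1.88 over the 10 genes, a ratio of 3.69, and -0.14 over all tested genes. These ratios were part of how the genes were picked, so nothing is read from the count. Reads come from the 3′ end of transcripts, and levels are therefore compared between the lines and not between genes. Positions below are those of GENCODE release 29 on GRCh38, since no source used here names the build of the counting.

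**Figure D1:**
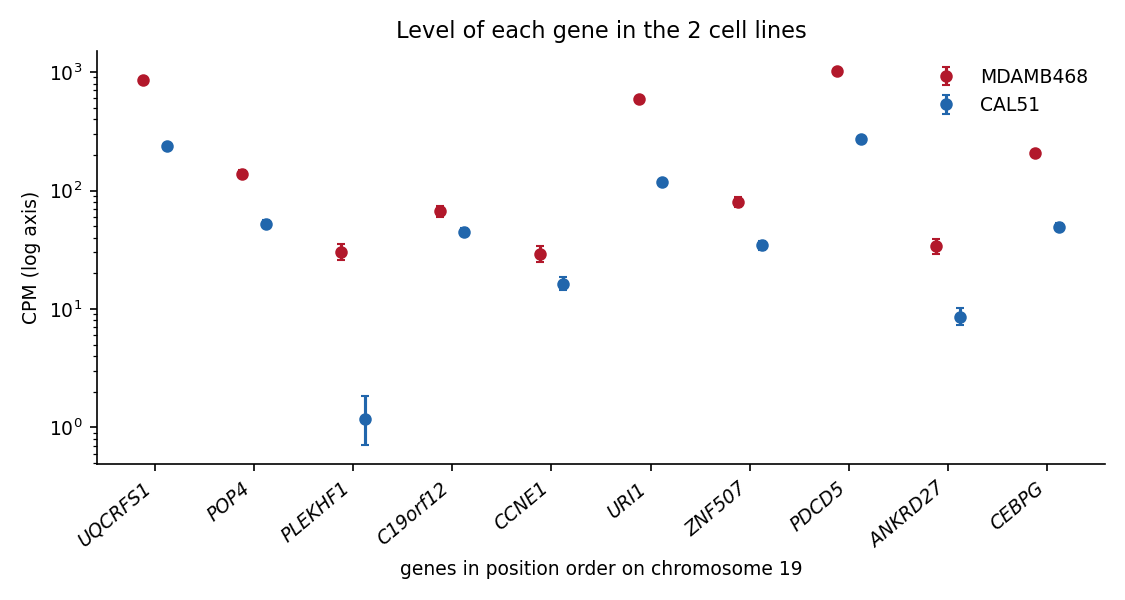
Level of each of the 10 genes (CPM, log axis) in the MDAMB468 library (red) and the CAL51 library (blue), in position order; points are sums over all barcodes of a line and bars are exact 95% Poisson intervals for counting error. Every red point lies above its blue point, most narrowly for C19orf12 (66.5 against 44.5 CPM) and CCNE1 (29.3 against 16.4 CPM).

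CCNE1 itself was among the genes with the smallest difference. CCNE1 (ENSG00000105173, chr19:29811898-29824308, plus strand) had 161 UMIs in MDAMB468, or 29.3 CPM (24.9 to 34.1), and 266 UMIs in CAL51, or 16.4 CPM (14.5 to 18.5). Its ratio was 1.78 (1.46 to 2.18), below the 2-fold threshold. Leaving the shared barcodes out of both lines instead of CAL51 only raised its log2 ratio from 0.84 to 1.07, the only one of 10 settings in which it passed 2-fold. In that setting 16.6% of 14847 tested genes passed 2-fold, against 18.9% of 15347 in the main setting.

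UQCRFS1 and C19orf12 encode mitochondrial proteins. UQCRFS1, the Rieske iron-sulfur subunit of respiratory complex III (ENSG00000169021, chr19:29205321-29213541, minus strand), stood at 862 CPM in MDAMB468 and 236 CPM in CAL51, a ratio of 3.65 (3.50 to 3.81). C19orf12, a membrane protein of mitochondria and the endoplasmic reticulum that is mutated in a form of neurodegeneration with brain iron accumulation (ENSG00000131943, chr19:29698886-29715789, minus strand), stood at 66.5 and 44.5 CPM. Its ratio of 1.49 (1.31 to 1.70) was the lowest of the 10 and stayed under 2 in 10 of 10 settings. The 2 genes lie 494 kb apart.

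POP4, URI1 and PDCD5 act in RNA processing and protein folding. POP4, a subunit of RNase P and RNase MRP, which process transfer and ribosomal RNA (ENSG00000105171, chr19:29604017-29617237, plus strand), stood at 139 CPM in MDAMB468 and 52.2 CPM in CAL51, a ratio of 2.66 (2.41 to 2.94). URI1, a prefoldin-like protein that binds an RNA polymerase subunit (ENSG00000105176, chr19:29923644-30016608, plus strand), stood at 595 and 117 CPM, a ratio of 5.09 (4.81 to 5.39). URI1 is the next tested gene after CCNE1, its start 112 kb away, and had the higher ratio of the pair. PDCD5, a protein linked to apoptosis that binds the chaperonin CCT (ENSG00000105185, chr19:32581068-32587452, plus strand), stood at 1023 and 274 CPM, a ratio of 3.74 (3.59 to 3.89).

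PLEKHF1 and ANKRD27 act on endosomes. PLEKHF1, a lipid-binding protein of endosomes and lysosomes (ENSG00000166289, chr19:29665056-29675457, plus strand), had 168 UMIs in MDAMB468 (30.5 CPM, 26.1 to 35.5) and 19 UMIs in CAL51 (1.17 CPM, 0.705 to 1.83). The ratio of 26.1 (16.2 to 44.4) was the highest of the 10 genes, and the few CAL51 counts make it the least precise. ANKRD27, an effector of RAB GTPases also known as VARP (ENSG00000105186, chr19:32597007-32676597, minus strand), stood at 33.99 CPM in MDAMB468 and 8.63 CPM in CAL51, a ratio of 3.94 (3.15 to 4.94).

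ZNF507 and CEBPG encode nuclear proteins. ZNF507, a zinc finger protein (ENSG00000168813, chr19:32345594-32387667, plus strand), stood at 79.8 CPM in MDAMB468 and 34.5 CPM in CAL51, a ratio of 2.32 (2.04 to 2.63). CEBPG, a leucine zipper factor that pairs with ATF4 and other C/EBP proteins (ENSG00000153879, chr19:33373330-33382686, plus strand), stood at 206 and 49.4 CPM, a ratio of 4.17 (3.81 to 4.57). Just inside the 2-fold line lay ZNF507 at 2.32, and just outside it lay CCNE1 at 1.78.

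Some counts could be shared with other features, since no source used here states whether strand was used or how multiply mapped reads were treated. UQCRFS1 overlaps its divergent transcript UQCRFS1-DT (3 UMIs in MDAMB468, 0 in CAL51), URI1 overlaps the pseudogene RPL9P32, and ANKRD27 overlaps SNORA68B and RGS9BP. The processed copies were low beside their parents. UQCRFS1P1 had 31 UMIs in MDAMB468 and 10 in CAL51, PDCD5P1 had 42 and 16, and PDCD5P2 had 39 and 5, against 4742 and 3832 for UQCRFS1 and 5627 and 4441 for PDCD5.

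Unlisted neighbours between ZNF507 and CEBPG showed a like pattern, although they too come from the stretch that was selected. No unlisted gene between UQCRFS1 and ZNF507, the part that holds CCNE1, passed the filter. Between UQCRFS1 and CEBPG 31 other genes had a count, and 10 of them passed the filter. The median ratio of the 10 was 3.88, and 9 had a ratio of at least 2, against 18.9% of all genes tested. The exception was DPY19L3-DT, a divergent transcript with 14 and 32 UMIs and a ratio of 1.29 (0.636 to 2.49). NUDT19, a peroxisomal hydrolase of coenzyme A, stood at 46.5 CPM in MDAMB468 and 7.58 CPM in CAL51, a ratio of 6.14 (4.93 to 7.67). RHPN2, a binding partner of the GTPase RhoB, had a ratio of 5.34 (4.50 to 6.33), and FAAP24, a protein of the Fanconi anaemia core complex, 4.14 (3.46 to 4.97). CEBPA, a second C/EBP gene beside CEBPG, had 52 and 15 UMIs and a ratio of 10.2 (5.67 to 19.6). The other neighbours were DPY19L3 (ratio 2.84), NUDT19-DT (3.63), CEP89 (2.22), GPATCH1 (3.42) and LRP3 (6.18).

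Because CCNE1 was below 2-fold, the count of consecutive genes around it with a ratio of at least 2 was 0. In position order 5 tested genes from LINC00662 to PLEKHF1 passed 2-fold, C19orf12 and CCNE1 did not, URI1 and ZNF507 did, DPY19L3-DT did not, and 12 genes from DPY19L3 to CEBPG did. The next tested gene after CEBPG was PEPD, the peptidase prolidase, at 1.58 (1.40 to 1.78). The 21 tested genes up to 2 Mb after CEBPG had a median of 2.29, and 13 of them passed 2-fold, against 18.9% of all genes tested. The 13 included LSM14A (2.29, 2.17 to 2.41), the glycolytic enzyme GPI (2.63, 2.48 to 2.77) and the SUMO-activating subunit UBA2 (2.69, 2.52 to 2.86), which were picked out after their values were seen. Far larger differences were also among the 13, such as FXYD5 at 32.3 (26.2 to 40.3) and FXYD3 with 944 UMIs in MDAMB468 and 0 in CAL51. KCTD15 in the same stretch went the other way, with 1 UMI in MDAMB468 and 119 in CAL51 (ratio 0.0248, 0.000622 to 0.141).

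**Figure D2:**
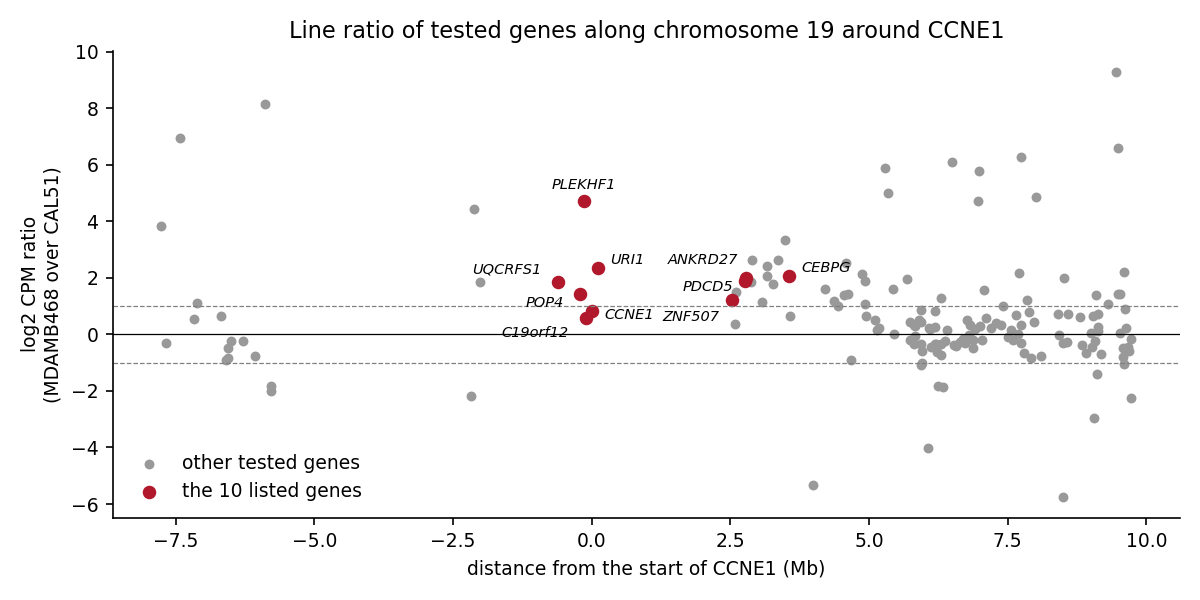
Line ratio (log2 of MDAMB468 CPM over CAL51 CPM) of tested genes with UMIs in both lines against the distance of their starts from the start of CCNE1 (Mb); red points are the 10 listed genes, grey points other genes, and dashed lines mark 2-fold either way. From the first to the last listed gene 8 of the 10 red points and most grey ones lie above the upper dashed line, and farther right the grey points spread around 0.

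Along the whole chromosome the 5 Mb bins that hold the 10 genes had the highest medians, but these include the listed genes, picked with their ratios known. The bin from 25 to 30 Mb had 9 tested genes, 6 of them listed, with a median ratio of 3.61, and the bin from 30 to 35 Mb had 30, 4 of them listed, with a median of 2.76. Without the listed genes, 29 genes were tested from 27 to 35 Mb, with a median of 2.69. Of these 20 had a ratio of at least 2, against 18.9% of all genes tested. The bins on either side, from 20 to 25 Mb and from 35 to 40 Mb, had 33 and 117 tested genes with medians of 0.966 and 1.08. The next highest median was 1.60, from 10 to 15 Mb, and outside 27 to 35 Mb the 1020 tested genes of chromosome 19 had a median of 0.993. In bins of 2 Mb, added after the data were seen, the 6 tested genes from 28 to 30 Mb were all listed ones and no gene was tested from 30 to 32 Mb. The median was 3.68 from 32 to 34 Mb (16 genes, 4 of them listed) and 1.35 from 34 to 36 Mb (38 genes).

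Partners of UQCRFS1, URI1, POP4, CCNE1, CEBPG and ANKRD27, nearly all of them encoded elsewhere in the genome, were counted. The background was the same, 18.9% at a ratio of at least 2 and 22.4% at 0.5 or less. Partners of the other listed genes were not examined. In complex III 0 of the 9 other subunits had a ratio of at least 2 and 1 had a ratio of 0.5 or less, with a median of 0.822. The range ran from UQCRC2, a core subunit, at 62.0 CPM in MDAMB468 and 124 CPM in CAL51 (0.499, 0.444 to 0.560), to mitochondrially encoded MT-CYB at 2651 and 1434 CPM (1.85, 1.81 to 1.89), while UQCRFS1 was at 3.65. Among 8 partners of URI1 in its prefoldin-like complex 0 reached 2 and the median was 0.959. POLR2E, the polymerase subunit that URI1 binds, was at 91.4 and 184 CPM (0.497, 0.451 to 0.546), and the prefoldin PFDN2 was highest at 1.84 (1.72 to 1.98). Of 9 further RNase P and MRP subunits 2 passed 2-fold, RPP40 at 2.80 (2.37 to 3.31) and RPP25 at 11.5 (7.65 to 17.8). RPP14 was lowest of these at 0.619 (0.344 to 1.05), and the median was 1.27.

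Genes of the cyclin E pathway were mostly lower in MDAMB468. Of 17 genes other than CCNE1 0 had a ratio of at least 2 and 8 had a ratio of 0.5 or less, with a median of 0.635. RB1, the repressor of E2F, had 18 UMIs in MDAMB468 and 1266 in CAL51, a ratio of 0.0419 (0.0248 to 0.0665) and the lowest of the list. FBXW7, which marks cyclin E for degradation, was at 21.3 CPM in MDAMB468 and 92.0 CPM in CAL51 (0.231, 0.190 to 0.279). The CDK inhibitor CDKN1B was at 29.4 and 121 CPM (0.244, 0.207 to 0.287), and the kinase CDK2 at 23.4 and 62.9 CPM (0.373, 0.308 to 0.448). CCNE2, the second E-type cyclin, was at 38.4 and 39.8 CPM (0.963, 0.821 to 1.13), and E2F2 was highest at 1.55 (1.22 to 1.96).

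Partners of CEBPG included higher genes, and those of ANKRD27 included lower ones. Of 6 C/EBP and ATF4 genes with an entry (CEBPE had none) 3 passed 2-fold, CEBPA at 10.2, CEBPB at 2.999 (2.42 to 3.71) and ATF4 at 2.43 (2.32 to 2.54), and CEBPA lies within the stretch itself. DDIT3, the stress factor also called CHOP, was lowest at 33.1 CPM in MDAMB468 and 61.7 CPM in CAL51 (0.536, 0.455 to 0.628). The GTPases that ANKRD27 binds, RAB32 and RAB38, were at 0 UMIs in MDAMB468 against 291 and 259 UMIs in CAL51. Against a floor of 3 counts in the MDAMB468 library, RAB32 was at least 32.9-fold lower and RAB38 at least 29.3-fold lower there. VPS29, the retromer subunit that ANKRD27 binds, was at 202 and 198 CPM (1.02, 0.952 to 1.09), and RAB21 at 24.9 and 48.0 CPM (0.519, 0.429 to 0.623). VAMP7 had no entry.

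**Figure D3:**
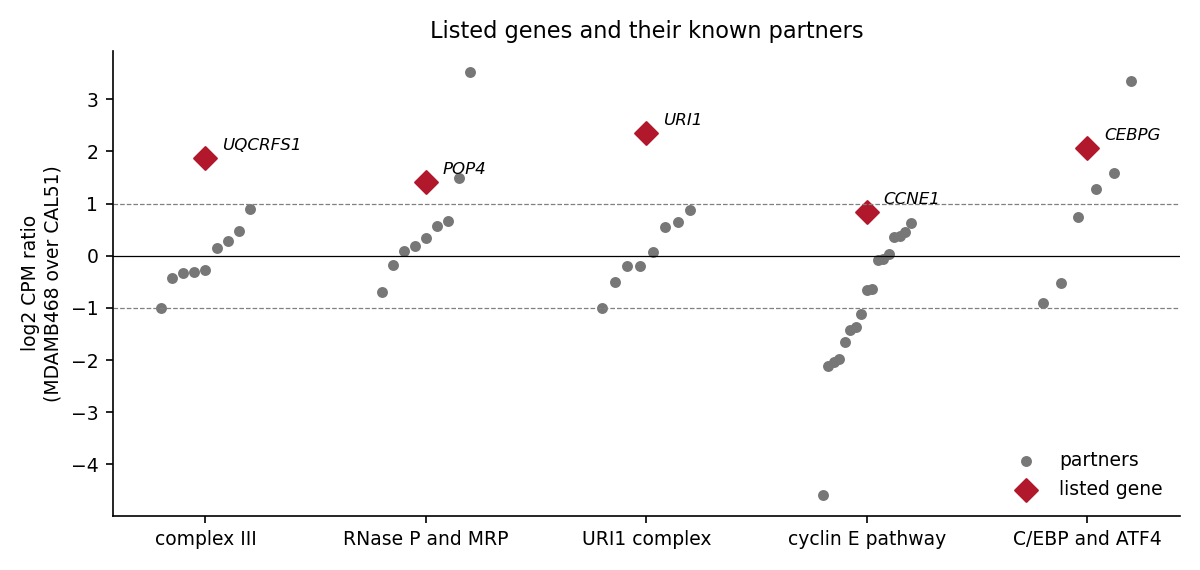
Line ratio (log2 of MDAMB468 CPM over CAL51 CPM) of listed genes (red diamonds) and of the other genes of their complex or pathway (grey points, in rank order); dashed lines mark 2-fold either way. UQCRFS1 and URI1 lie above every partner shown, CCNE1 lies above the 17 genes of its pathway, and RPP40 and RPP25 lie above POP4 and CEBPA above CEBPG.

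To look at single cells at equal depth, each cell was thinned to 5000 UMIs, which left 208 MDAMB468 and 1069 CAL51 cells and left out 34 and 270 shallower ones. Their median depth before thinning was 17726.5 and 10389 UMIs. The 10 genes together gave a mean of 15.3 UMIs per MDAMB468 cell (median 15, range 4 to 28) and 4.13 per CAL51 cell (median 4, range 0 to 16). PDCD5, UQCRFS1 and URI1 make up most of this sum. Their means per MDAMB468 cell were 5.26, 4.26 and 2.97 UMIs, against 0.178 for CCNE1. No MDAMB468 cell and 21 CAL51 cells had none of the 10. A sum above 9, the 97.5 percentile of CAL51 cells, was found in 195 of 208 MDAMB468 cells (93.8%, exact binomial interval 89.5 to 96.6). The higher sum was thus present in most MDAMB468 cells, but the genes were picked with their line ratios known. The sum does not show that each of the 10 genes was higher in most cells. The Fano factor of the sum, its variance over its mean, was 1.04 in MDAMB468 and 1.17 in CAL51, where counting alone gives 1. Another seed gave 1.28 and 1.14, so the order of the lines is not determined. In MDAMB468 the factor was lowest at 1.04, and it was 1.35 with satellites kept and 1.67 with cells thinned to 10000 UMIs.

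**Figure D4:**
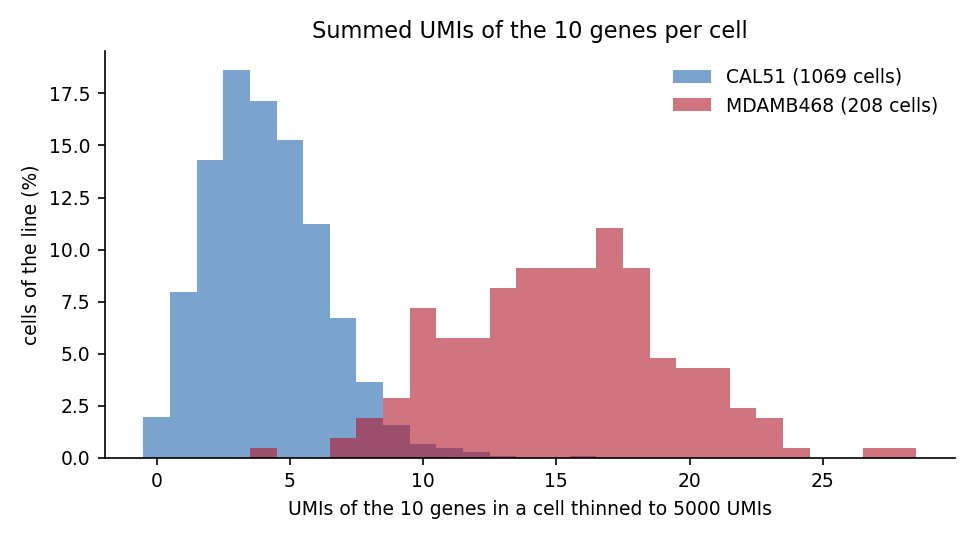
Distribution of the summed UMIs of the 10 genes per cell after thinning to 5000 UMIs, as a percentage of the 208 MDAMB468 cells (red) and of the 1069 CAL51 cells (blue). The distributions overlap little, with medians of 15 and 4 UMIs, and PDCD5, UQCRFS1 and URI1 make up most of the sum.

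Each listed gene named in this paragraph was detected in a larger share of MDAMB468 cells than of CAL51 cells. CCNE1 had a UMI in 15.4% of MDAMB468 cells (10.8 to 21.0) and 8.42% of CAL51 cells (6.82 to 10.2), and without thinning in 33.5% and 15.7%. PLEKHF1 had one in 14.9% of MDAMB468 cells (10.4 to 20.5) and 0.655% of CAL51 cells (0.264 to 1.34), and ANKRD27 in 12.02% (7.93 to 17.2) and 4.30% (3.17 to 5.70). URI1 was detected in 92.3% (87.8 to 95.5) and 40.7% (37.7 to 43.7), and CEBPG in 61.1% (54.1 to 67.7) and 22.2% (19.7 to 24.8). As a gauge of RNA carried over from the other line, GSTP1, found in all CAL51 cells, had a UMI in 1.92% of MDAMB468 cells (0.526 to 4.85). KRT7, abundant in MDAMB468, had none in the CAL51 cells, which allows a share of up to 0.344%, and its 106 UMIs under the CAL51 label were all in the shared barcodes left out. Free RNA of a line within its own droplets is not gauged by these genes and was not tested. The PLEKHF1 share in CAL51 rests on 7 cells.

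Within a line the 10 genes did not vary together to a degree visible at this depth. Over the 45 pairs of genes the median Pearson r across the 208 MDAMB468 cells was 0.014, with 25 pairs above 0. The pairs ran from -0.17 for UQCRFS1 with PDCD5 to 0.18 for URI1 with ZNF507. Over all pairs of the 6128 genes with a mean of at least 0.1 UMI the median was -0.003, with 95% of pairs between -0.13 and 0.15. In CAL51 the median over the 45 pairs was 0.003 across 1069 cells. CCNE1 and URI1, which are adjacent, had an r of -0.06 in MDAMB468. Over 10 draws of the thinning the MDAMB468 median ran from -0.008 to 0.017, so its sign is not determined. The cells share 1 library and 1 depth, and 7 of the 10 genes had a mean under 1 UMI per MDAMB468 cell.

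The genes most alike to the sum of the 10 across MDAMB468 cells were HSPD1, a mitochondrial chaperonin (r = 0.31), IAH1 (0.28), MRTO4 (0.26), PABPC1 (0.26) and TMPO (0.25). To CCNE1 they were PWWP3A (0.32), RNASEH1-DT (0.30), SPIN4 (0.27), DERL2 (0.27) and HES4 (0.27). Of these 10 genes only PWWP3A is on chromosome 19. They are the highest of the 6118 other genes compared over 208 cells, where the 97.5 percentile was 0.14 for the sum and 0.15 for CCNE1, and such extremes of sparse counts are no finding by themselves.

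CCNE1 was lower in MDAMB468 cells called G2M than in those called G1 or S, and over all UMIs it differed more between phases than the other 9 genes did. Phases were called from 43 S phase and 54 G2 and M phase genes, none of them among the 10, which gave 38 G1, 52 S and 118 G2M cells in MDAMB468 and 79, 298 and 692 in CAL51. Over all UMIs of these cells CCNE1 stood at 62.8 CPM (45.3 to 84.9) in G1, 60.5 CPM (46.5 to 77.4) in S and 14.8 CPM (11.0 to 19.4) in G2M cells of MDAMB468. The ratio over G2M cells was 4.25 (2.76 to 6.52) in G1 and 4.09 (2.78 to 6.04) in S. In thinned cells, which weigh each cell equally, these ratios were 3.49 (1.20 to 10.4) and 5.67 (2.39 to 14.9), from 9, 20 and 8 UMIs. At 2500 UMIs, with 242 cells and phases called on fewer counts, they were 2.05 and 1.41.

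In CAL51 CCNE1 stood at 12.2 CPM (6.09 to 21.8) in G1, 24.1 CPM (19.3 to 29.7) in S and 13.99 CPM (11.8 to 16.4) in G2M cells, and the S level was 1.72 times that of G2M cells (1.30 to 2.26). In thinned cells that ratio was 1.61 (1.02 to 2.51), with 3.61 under another seed and 1.68 at 2500 UMIs, where it was above the 1.41 of MDAMB468. Whether the difference between phases differs between the lines was not tested. The ratio of the lines for CCNE1 was 5.15 (2.61 to 11.1) among G1 cells, 2.51 (1.79 to 3.51) among S cells and 1.06 (0.753 to 1.46) among G2M cells. Without shared barcodes in either line these were 5.39 (2.68 to 11.8), 2.65 (1.86 to 3.76) and 0.856 (0.501 to 1.38). In thinned cells they were 3.12 (0.991 to 10.6), 3.18 (1.75 to 5.65) and 0.902 (0.370 to 1.91). The ratio of CCNE1 over a whole line, 1.78, covers all phases, and most of the cells of both lines were called G2M. With shared barcodes kept, G2M cells of MDAMB468 were also the deepest, with 3450884 UMIs in 118 cells against 668376 in 38 G1 cells. Without shared barcodes these were 1585525 in 92 cells and 532257 in 35 cells, and CCNE1 had 19 G2M UMIs instead of 51. The part of depth and of free RNA in these calls was not tested.

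Over all UMIs the other 9 genes had a ratio between the lines above 1 in every phase, and their levels in G1 and S cells of MDAMB468 were 0.773 to 1.42 times those in G2M cells. Thinned cells differed from this for PLEKHF1, whose level over G2M cells was 3.49 (1.20 to 10.4) in G1 and 4.54 (1.83 to 12.2) in S, from 9, 16 and 8 UMIs, against 1.42 (0.893 to 2.20) and 1.15 (0.754 to 1.71) over all UMIs. C19orf12 in thinned S cells had a ratio between the lines of 0.943 (0.481 to 1.71). Over all UMIs the summed 10 genes, mostly PDCD5, UQCRFS1 and URI1, had a ratio between the lines of 4.51 (4.13 to 4.94) in G1, 3.84 (3.65 to 4.03) in S and 3.53 (3.43 to 3.63) in G2M cells. URI1 was at 5.87 (4.70 to 7.40), 5.34 (4.74 to 6.03) and 4.83 (4.49 to 5.19). C19orf12 was at 1.70 (1.11 to 2.62), 1.48 (1.10 to 1.98) and 1.43 (1.21 to 1.68). CEBPG was at 4.78 (3.33 to 7.001), 5.08 (4.18 to 6.18) and 3.81 (3.395 to 4.28), and within MDAMB468 its level in S cells was 1.31 times that of G2M cells (1.13 to 1.51). ANKRD27 had 27 and 3 UMIs in G1 cells and a ratio of 12.1 (3.74 to 62.6), against 2.37 (1.41 to 3.92) in S and 3.90 (2.95 to 5.16) in G2M cells.

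**Figure D5:**
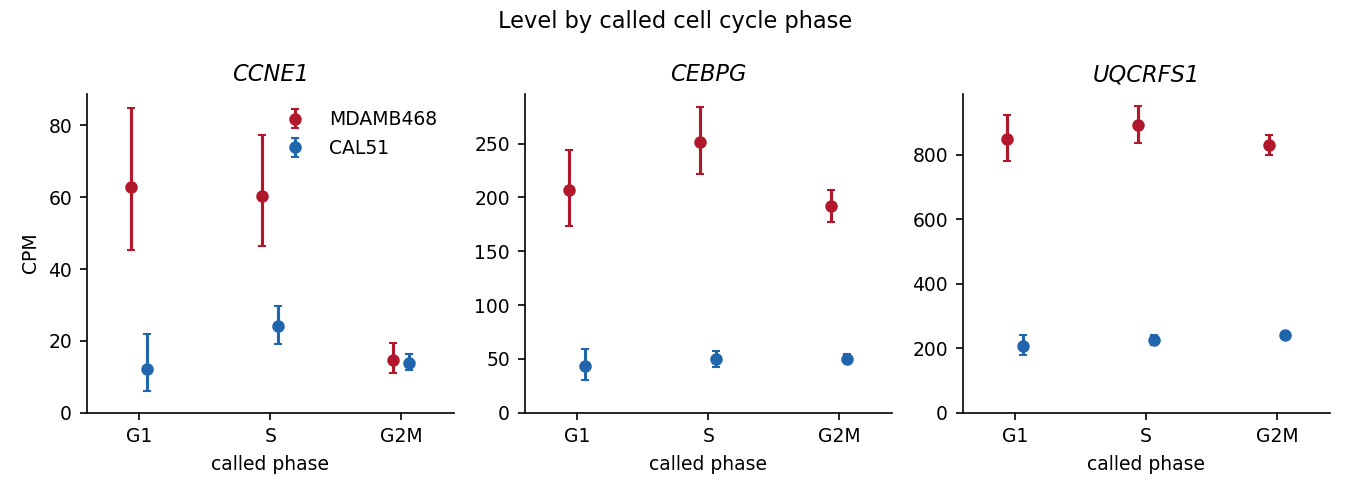
Level (CPM over all UMIs) of CCNE1, CEBPG and UQCRFS1 in cells called G1, S or G2M, for MDAMB468 (red) and CAL51 (blue); bars are exact 95% Poisson intervals for counting error and each panel has its own axis from 0. For CCNE1 the lines meet in G2M cells at 14.8 and 13.99 CPM, whereas CEBPG and UQCRFS1 are higher in MDAMB468 in every phase.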

How the data were processed

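UMI counts were deposited as whole numbers for each gene and barcode, and barcode names begin with the cell line, per the file headers. Libraries were made by Drop-seq, per the labels' protocols, and STARsolo is named in the submitters' processing notes. Its version, the genome build and how barcodes were selected: not given in the sources used here. Symbols were matched for 30793 of 30796 genes and GENCODE 29 positions for 29416. UMIs were summed per line and scaled to CPM, and genes with at least 20 UMIs over both lines were called at a ratio of 2 or more or 0.5 or less. With 1 library per line no test was possible. Intervals are exact Poisson, conditional binomial or Clopper-Pearson at 95%, and a line at 0 was set to a floor of 3 counts. Cells were thinned to 5000 UMIs without replacement, and phases were called with scanpy 1.11.5 on both lines together. Doublets were not removed. The ratio and correlation scripts were tested on simulated data. Alternatives covered shared and satellite barcodes, scaling (edgeR 4.0.16 for TMM factors alone), pseudocount, filter, threshold, depth and seed. Named genes are the 10 genes, tested neighbours, partners with at least 20 UMIs, including the highest and lowest of each list, and the 5 genes most alike to the sum and to CCNE1. The members and lists were chosen with earlier results of these data known. Tools were Python 3.11.15 with scipy 1.17.1, numpy 2.4.6 and pandas 2.3.3, and R 4.3.3.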

Additional observations from a re-analysis of the deposited data

Results flagged for a closer look

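The 31 CAL51-labelled barcodes whose sequences also occur in MDAMB468 were kept out of the values reported above, other than the alternative that keeps them, and the 10 genes stood high in them. They held 338 UMIs of the 10 genes, a summed level of 2499 CPM (2240 to 2780). Of these UMIs 96 were of UQCRFS1, 80 of PDCD5, 56 of URI1 and 55 of CEBPG. The other CAL51 barcodes stood at 834 CPM (820 to 848), the MDAMB468 library at 3065 CPM, and the MDAMB468 barcodes with the same sequences at 2959 CPM. No control library exists for them.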

How the results depend on the processing

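The 10 genes were higher in MDAMB468 in all 90 values from 9 alternative settings (shared and satellite barcodes, 3 scalings, a pseudocount, equal weight per barcode, a minimum of 5000 UMIs and shared barcodes out of both lines), and 74 of the 90 lay within the counting interval. Other scalings shifted the median log2 ratio of all tested genes by -0.13 (TMM), -0.14 (median of ratios) and 0.10 (without mitochondrial and ribosomal protein genes). Under these scalings the median of the 10 genes, 1.88 in the main setting, was 1.75, 1.74 and 1.99, in the same order. PLEKHF1 moved most, from 4.70 to 3.86 with a pseudocount of 1 CPM.

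Of all genes, 8837 of 30785 (28.7%) passed 2-fold with no filter (25 unlisted neighbours between the first and last gene instead of 9). With at least 20 UMIs, the main setting, 2896 of 15347 (18.9%) passed, and with at least 100 UMIs 1416 of 10960 (12.9%). The share that passed 2-fold thus fell as the filter rose, while 8 listed genes passed under each of these filters. In the main setting 1882 of 15347 (12.3%) passed 3-fold. The median pair r, 0.014 in MDAMB468, was -0.0072 with another seed, 0.0034 at 2500 UMIs and -0.0097 without the 5% of cells with the highest sums. In CAL51, at 0.0026, it was -0.0055 with another seed, 0.0086 at 10000 UMIs, -0.0062 with satellites kept and -0.0042 without the highest cells. The share of cells with a CCNE1 UMI was 8.68% at 2500 and 26.8% at 10000 UMIs in MDAMB468, and 4.85% and 13.5% in CAL51, since depth sets detection. CCNE1 in S over G2M cells fell to 1.41 at 2500 UMIs in MDAMB468 and rose to 3.61 with another seed in CAL51; the cause was not tested. G1 over G2M in MDAMB468 ran from 2.05 at 2500 UMIs to 8.23 with satellites kept. The alternatives of 2 Mb bins, protein-coding genes, phases by line or over all UMIs, phase means removed, cells of high sums left out and shared barcodes out of both lines were chosen after seeing the data. No paired analysis was possible because each line has 1 library. Counting error at depths of 5000 UMIs limits every value of CCNE1, PLEKHF1 and ANKRD27 per cell.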
